A study of Homo sapiens with 4 samples.

Results

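The genes described here are 10 genes of the cytosolic RNA-sensing system and of RNA editing: DDX58, IFIH1, DHX58, DDX60, EIF2AK2, ZC3HAV1, ADAR, MAVS, TRIM25 and IRF3. They were taken by gene symbol from the files, and all 10 were listed, with 29 transcripts, among 13036 genes and 38510 transcripts in all. HCCLM3, a human hepatoma cell line, carried either a control short hairpin RNA delivered by lentivirus (shCtrl, 2 libraries) or a hairpin against KIAA1429 (shKIAA1429, 2 libraries), and no other treatment was named in either group. KIAA1429, listed as VIRMA, is a subunit of the enzyme complex that methylates adenosines of RNA (m6A), and the comparison asks which transcripts change when it is depleted. Nothing in the labels says whether the libraries came from separate cultures, infections or clones, so the p-values below measure only the spread between these libraries. Values are FPKM, fragments per transcript corrected for transcript length and library size, and a gene's level is the sum over its listed transcripts.

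Cells detect viral and misplaced cellular RNA in the cytosol through a few protein families. RIG-I (the product of DDX58) and MDA5 (IFIH1) are helicases that bind double-stranded RNA and signal through the mitochondrial adaptor MAVS to the transcription factor IRF3, which switches on interferon genes. PKR (EIF2AK2) blocks translation and ZAP (ZC3HAV1) directs viral RNA to decay, while ADAR1 (ADAR) converts adenosine to inosine in double-stranded RNA and so keeps the cell's own RNA from being sensed. Many of these genes are themselves switched on by interferon, through promoter elements built on repeated GAAA.

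The promoters are shown first because the genes were chosen by name and not by sequence, and the repeated GAAA can be read from them directly. RefSeq promoter windows (GRCh38.p14, 250 bases before to 50 after the start site) were at hand for 8 of the 10 genes, and were searched on both strands for GAAANNGAAA and GAAANGAAA, copies of the GAAA core of the interferon response element set 2 bases or 1 base apart. The motifs can overlap each other. One or the other was found in 6.40% of 35116 promoter windows (3.57% held the first and 3.12% the second), and in the windows of 5 member genes, DDX58, IFIH1, DDX60, EIF2AK2 and TRIM25. The stretches run on the minus strand at chr9:32526371-32526419 for DDX58, chr2:162318685-162318863 for IFIH1, chr4:168318776-168318860 for DDX60, chr2:37156977-37157006 for EIF2AK2 and chr17:56914044-56914072 for TRIM25. They are written 5′ to 3′ along the gene, with the matches in capitals (TTTC where the match lies on the other strand) and 20 flanking bases, cut short at the start site.
DDX58: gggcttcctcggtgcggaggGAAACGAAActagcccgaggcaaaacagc
IFIH1: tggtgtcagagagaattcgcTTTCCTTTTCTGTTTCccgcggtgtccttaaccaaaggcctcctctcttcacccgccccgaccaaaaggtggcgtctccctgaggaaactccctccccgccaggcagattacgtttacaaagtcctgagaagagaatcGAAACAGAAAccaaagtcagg
DDX60: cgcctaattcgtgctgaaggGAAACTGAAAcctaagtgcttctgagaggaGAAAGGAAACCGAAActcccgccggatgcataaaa
EIF2AK2: gggaaggcggagtccaagggGAAAACGAAA
TRIM25: actgctcctctcgagctaggTTTCGTTTC

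IFIH1 held 3 matches, of which the overlapping pair began 159 and 153 bases before the start site and the third 21 bases before it. DDX60 held 3, beginning 88, 58 and 53 bases before the start. The single matches of EIF2AK2 and TRIM25 began 6 and 3 bases before the start and ran across it, and that of DDX58 lay 203 bases before it. The windows of MAVS and ZC3HAV1 and the 3 windows of ADAR held neither string, which says only that these letters are absent there. The ADAR windows were not matched to its listed transcripts, so the start of its interferon-inducible transcript may not have been searched. A match is a description of sequence and not of a factor bound.

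No member was called different between the groups. The call used limma on log2(FPKM + 1) and needed both an adjusted p under 0.05 and a log2 fold change beyond 1 in size. It was met by 0 of 10 members and by 0 of the 11657 genes tested (0%), whose smallest adjusted p in limma was 0.238. The study applied the same thresholds to DESeq on read counts and reported differentially expressed genes. That test needs counts, which FPKM are not, so the 0 calls describe limma on these libraries only. At an unadjusted limma p under 0.05 there were 656 genes (5.63%) and 0 members. Log2 fold changes below are shKIAA1429 over shCtrl on the log2(FPKM + 1) scale, which understates the change of low genes. With 2 libraries against 2 an exact permutation test cannot go below p = 0.333. The 10 members gave 7 log2 fold changes below 0 and 3 above, where 51.9% of all genes were below 0. Their median was -0.07 against -0.01 for all genes tested. In 3 members both knockdown libraries lay below both controls (16.7% of all genes) and in 1 both lay above (16.9%).

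The levels spanned a wide range, as the plot of FPKM by library shows. ADAR stood alone at the top, above 94.0% of the genes tested, and TRIM25 came next, above 81.5%. ZC3HAV1, MAVS, IRF3 and EIF2AK2 formed a middle group in which the range of each gene over the libraries overlapped that of its neighbour. The 3 RIG-I-like receptor genes IFIH1, DHX58 and DDX58 lay lower, again with overlapping ranges, at the 38.0, 31.6 and 28.4 percentiles, and DDX60 was lowest at the 7.77 percentile.

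**Figure D1:**
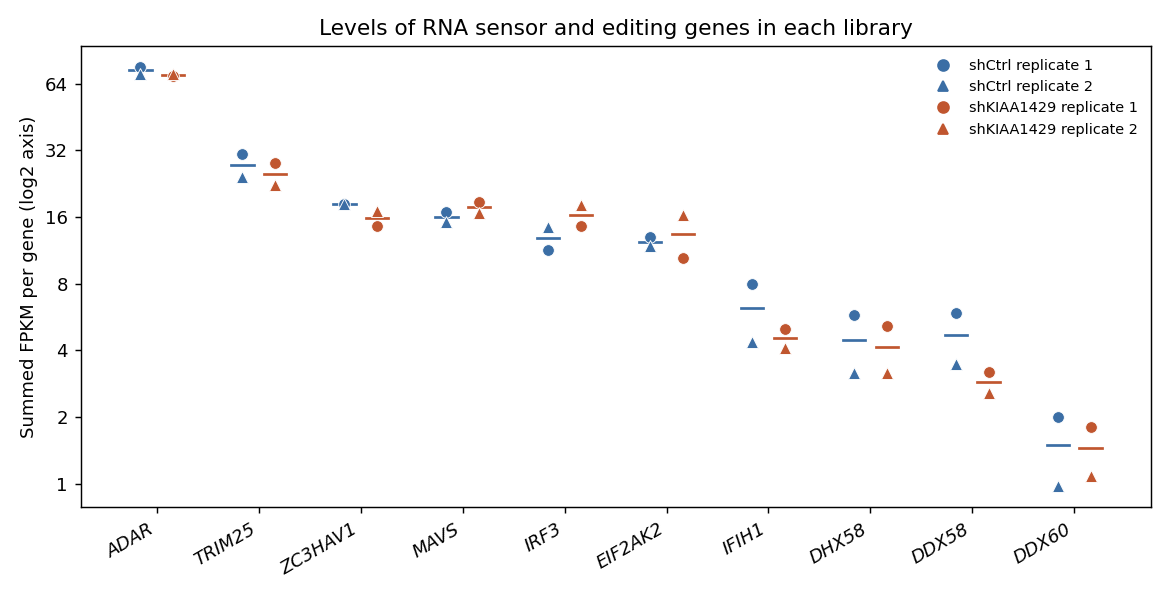
Summed FPKM of each of the 10 genes (log2 axis) in every library, with circles for replicates 1, triangles for replicates 2 and short bars for the mean of each group's 2 libraries. ADAR lies between 69.7 and 76.2 in all 4 libraries. The highest point is the control replicate 1 for ADAR, TRIM25, IFIH1, DHX58, DDX58 and DDX60.

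DDX58 (GRCh37, chr9:32455703-32526322, minus strand) encodes RIG-I, which binds RNA ends that carry a triphosphate. It measured 5.92 and 3.46 FPKM in the controls (shCtrl replicate 1, then replicate 2), and 3.19 and 2.56 in the knockdown (shKIAA1429, in the same order, kept below). Both knockdown libraries were below both controls, but the nearest values of the groups differed by less than the 2 controls did. The log2 fold change was -0.52 (SE 0.26, 95% interval -1.20 to 0.15, limma adjusted p = 0.924), the largest in size among the members. Part of the control value came from 1 library. DDX58-201, whose 4493 exonic bases all lie within DDX58-202, was listed at 1.48 FPKM in control replicate 1 and at 0 in the other 3 libraries. DDX58-202 alone measured 4.44 and 3.46 FPKM in the controls and 3.19 and 2.56 in the knockdown, so the groups kept their order without the shorter transcript, with a log2 fold change of -0.35 (SE 0.22, limma adjusted p = 0.973 over transcripts). Without control replicate 1 the log2 fold change of the gene was -0.21.

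IFIH1 (chr2:163123589-163175213, minus strand) encodes MDA5, which assembles along long double-stranded RNA. It measured 7.99 and 4.37 FPKM in the controls and 4.9996 and 4.09 in the knockdown. Control replicate 1 stood above the other 3 libraries, which lay close together, and the groups overlapped. The log2 fold change was -0.33 (SE 0.29, 95% interval -1.08 to 0.42, limma adjusted p = 0.977), and it became 0.042 without control replicate 1. The main transcript IFIH1-201 followed the gene at 5.52 and 3.54 FPKM in the controls and 3.89 and 2.84 in the knockdown. The short IFIH1-202, with 2 exons, ran from 0.826 to 2.47 FPKM.

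DHX58 (chr17:40253422-40264751, minus strand) encodes LGP2, which lacks the signalling domains of its relatives and tunes their response. It measured 5.76 and 3.14 FPKM in the controls and 5.12 and 3.16 in the knockdown. Here the libraries split by replicate number and not by group, with both replicates 1 above both replicates 2, and the log2 fold change was -0.07 (SE 0.32, 95% interval -0.91 to 0.77, limma adjusted p = 0.999). Its 3 listed transcripts gave 53.1% and 42.3% of the sum to DHX58-201 in the controls, and DHX58-201 measured 3.06 and 1.33 FPKM there against 2.48 and 1.56 in the knockdown. Over the 3 receptor genes together the summed level was 19.7 and 10.97 FPKM in the controls and 13.3 and 9.81 in the knockdown.

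DDX60 (chr4:169137444-169239958, minus strand), a helicase described as an aid to RIG-I-like receptor signalling, was listed with 1 transcript. It measured 2.002 and 0.971 FPKM in the controls and 1.80 and 1.08 in the knockdown. The replicates of the same number matched more closely than those of the same group, and the log2 fold change was -0.01 (SE 0.28, 95% interval -0.74 to 0.72, limma adjusted p = 0.999). Its neighbour and paralog DDX60L, which could share reads with it, measured 9.93 and 7.66 FPKM in the controls and 5.94 and 6.35 in the knockdown, with a log2 fold change of -0.45 (SE 0.18, limma adjusted p = 0.892).

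The split by number held for several members. Both replicates 1 exceeded both replicates 2 in DHX58, DDX60, IFIH1, TRIM25 and MAVS, that is 5 of 10 members against 22.0% of all genes. Control replicate 1 was the highest library for 6 of 10 members against 23.7% of all genes. The labels do not say what a shared replicate number stands for, and its part in these values was not tested.

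EIF2AK2 (chr2:37326353-37384190, minus strand) encodes PKR, which phosphorylates the initiation factor eIF2 once bound to double-stranded RNA. It measured 12.9 and 11.9 FPKM in the controls and 10.5 and 16.3 in the knockdown. The knockdown libraries held both the lowest and the highest value, and the log2 fold change was 0.07 (SE 0.24, 95% interval -0.54 to 0.69, limma adjusted p = 0.999). The highest value rested on 1 transcript. EIF2AK2-204, a model of 1533 exonic bases that lie wholly within EIF2AK2-201, was listed at 7.10 FPKM in knockdown replicate 2, at 0.813 in control replicate 1 and at 0 in the other 2 libraries. The other 3 transcripts summed to 12.1 and 11.9 FPKM in the controls and 10.5 and 9.21 in the knockdown. In this sum the groups did not overlap and the knockdown was the lower. Leaving out a transcript that was high only in a knockdown library favours this order. The 16.7% of all genes with that order is for whole sums and is not a like background. Fragments assigned to EIF2AK2-204 could also have come from EIF2AK2-201, so leaving it out can understate the gene in knockdown replicate 2. EIF2AK2-201, the main transcript, measured 11.6 and 7.65 FPKM in the controls and 8.30 and 6.39 in the knockdown.

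ZC3HAV1 (chr7:138728266-138794465, minus strand) encodes ZAP, which binds CpG-rich RNA and recruits decay enzymes. The gene measured 18.3 FPKM in each control and 14.6 and 17.0 in the knockdown. Both knockdown libraries were below the controls, and the log2 fold change was -0.21 (SE 0.15, 95% interval -0.59 to 0.18, limma adjusted p = 0.969). The transcripts were less steady than their sum. ZC3HAV1-201, which codes for 902 residues (the long ZAP), measured 6.51 and 12.1 FPKM in the controls and 9.74 and 6.83 in the knockdown. ZC3HAV1-203, which codes for 1024 residues, measured 8.40 and 2.63 in the controls and 2.55 and 7.08 in the knockdown. One was high where the other was low, and their sum ran only from 12.3 to 14.9 FPKM. They share 4410 exonic bases. The share of ZC3HAV1 FPKM in the longer-coding ZC3HAV1-203 was 46.0% and 14.4% in the controls and 17.5% and 41.7% in the knockdown, a difference in means of -0.556 percentage points (two-sided exact permutation test, p = 1). ZC3HAV1-204, which codes for 699 residues (the short ZAP), stayed between 1.40 and 2.34 FPKM in all 4 libraries, with overlapping groups.

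ADAR (chr1:154554538-154600475, minus strand) was the most abundant and the steadiest member. It measured 76.2 and 71.0 FPKM in the controls and 69.7 and 70.5 in the knockdown, with the highest library 1.09 times the lowest. The knockdown values were both below the controls, yet the gap between the groups was under 1 FPKM, while the controls lay over 5 FPKM apart. The log2 fold change was -0.07 (SE 0.12, 95% interval -0.38 to 0.24, limma adjusted p = 0.992).

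This steady sum hid a transcript that changed places in 1 library. ADAR-201 codes for 931 residues (the constitutive p110 protein of the nucleus) and ADAR-202 for 1226 (the interferon-inducible p150 protein, which also acts in the cytoplasm). ADAR-201 measured 47.7 and 43.7 FPKM in the controls, 2.23 in knockdown replicate 1 and 46.8 in knockdown replicate 2. ADAR-202 measured 3.04 and 2.93 FPKM in the controls, 44.1 in knockdown replicate 1 and 2.60 in knockdown replicate 2. The 2 transcripts traded levels in knockdown replicate 1 alone, and their sum stayed at 50.8 and 46.6 FPKM in the controls and 46.3 and 49.4 in the knockdown. ADAR-202 thus took 3.99% and 4.13% of ADAR FPKM in the controls, 63.3% in knockdown replicate 1 and 3.68% in knockdown replicate 2. The difference in means was 29.4 percentage points (two-sided exact permutation test, p = 1), and it was -0.375 points without knockdown replicate 1. In the GENCODE 44 annotation these transcripts share 6405 exonic bases, with 114 found only in ADAR-201 of the pair and 205 only in ADAR-202. Neither was listed here with the same start and end as in GENCODE 44. Their protein labels therefore rest on the coding lengths of that annotation. The third abundant transcript, ADAR-208, measured 25.1 and 23.6 FPKM in the controls and 22.6 and 20.8 in the knockdown, lower in both knockdown libraries, with a log2 fold change of -0.16 (SE 0.14, limma adjusted p = 0.976 over transcripts). It held 29.5% to 33.3% of ADAR FPKM in every library. GENCODE 44 gives its identifier 1200 coding residues and 6343 exonic bases that all lie within ADAR-202, but the files list a shorter, older version (chr1:154557285-154575102), so it was assigned to neither protein, and the ADAR-202 share need not be all of the p150 RNA.

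Such trades were counted across the files, by a definition set after the ADAR values were seen. A pair of transcripts of 1 gene was counted if 1 was at least 10 times the other in 3 libraries and at most a 10th of it in the remaining library, with each reaching 10 FPKM somewhere. Of 3330 pairs whose transcripts both reached that level, 57 (1.71%), in 45 genes, did so. The library that differed was control replicate 1 for 12 pairs, control replicate 2 for 16, knockdown replicate 1 for 20 and knockdown replicate 2 for 9. A trade that set both controls against both knockdown libraries was seen in 4 pairs, and one that set 1 control and 1 knockdown library against the other 2 in 17. ADAR was the only member among the 45 genes, but no other member had 2 transcripts that reached 10 FPKM. The other members could therefore not have been counted. Whether its trade came from the cells, from how fragments were divided between the transcripts or from rows exchanged in a file was not tested.

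**Figure D2:**
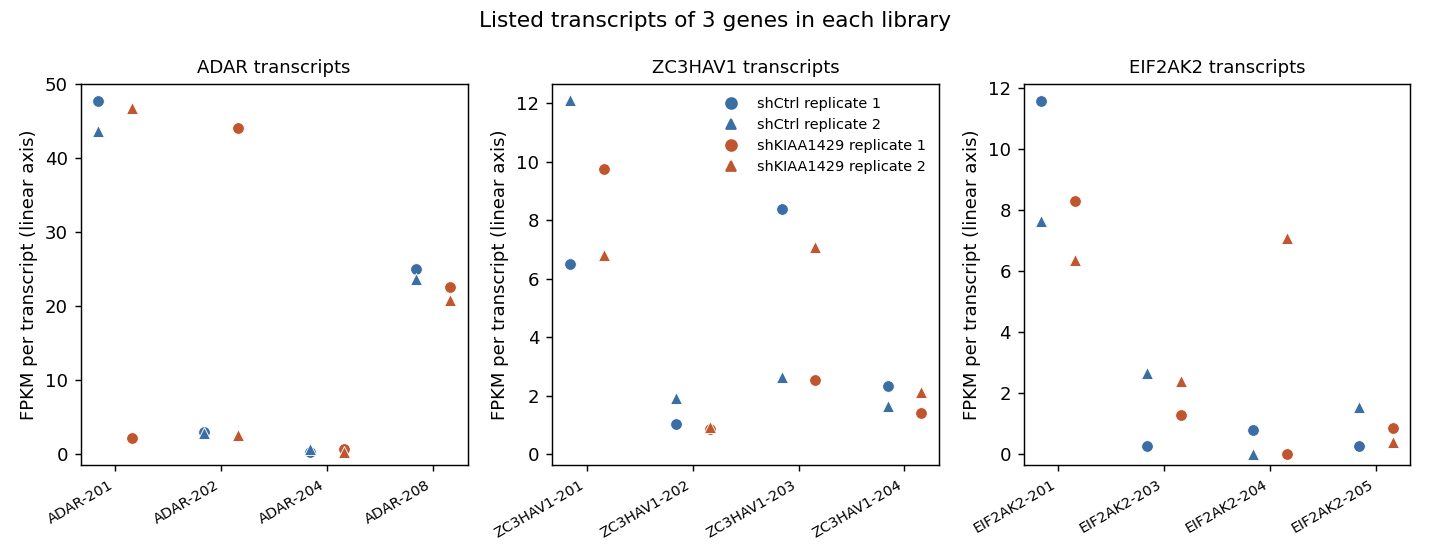
FPKM of every listed transcript of ADAR, ZC3HAV1 and EIF2AK2 (linear axes that differ between panels), with controls in blue, knockdown in orange, circles for replicates 1 and triangles for replicates 2. ADAR-201 and ADAR-202 change places in knockdown replicate 1, and EIF2AK2-204 reaches 7.10 FPKM in knockdown replicate 2 only.

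MAVS (chr20:3827446-3856770, plus strand) encodes the mitochondrial adaptor through which RIG-I and MDA5 signal. It measured 16.8 and 15.2 FPKM in the controls and 18.7 and 16.7 in the knockdown. The groups overlapped by a narrow margin, with a log2 fold change of 0.14 (SE 0.15, 95% interval -0.24 to 0.52, limma adjusted p = 0.987). MAVS-202, the 540-residue form, held most of it at 16.05 and 14.995 FPKM in the controls and 16.9 and 16.2 in the knockdown. MAVS-201 was the more variable, from 0.253 FPKM in control replicate 2 to 1.84 in knockdown replicate 1.

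TRIM25 (chr17:54965270-54991399, minus strand) encodes a ubiquitin ligase that binds RNA and acts with RIG-I and ZAP. It measured 30.7 and 24.2 FPKM in the controls and 28.1 and 22.2 in the knockdown, again higher in both replicates 1. The log2 fold change was -0.12 (SE 0.20, 95% interval -0.63 to 0.39, limma adjusted p = 0.988). TRIM25-201 held most of the sum, from 18.2 to 24.3 FPKM. The noncoding TRIM25-209 measured 4.09 and 2.95 FPKM in the controls and 2.70 and 2.47 in the knockdown, lower in both knockdown libraries.

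IRF3 (chr19:50162829-50169099, minus strand), the transcription factor at the end of the pathway, was the member with both knockdown libraries above both controls. It measured 11.3 and 14.4 FPKM in the controls and 14.5 and 18.1 in the knockdown. The nearest values of the 2 groups were almost equal, and the log2 fold change was 0.32 (SE 0.19, 95% interval -0.18 to 0.82, limma adjusted p = 0.954). IRF3-221 held most of it and overlapped between the groups at 10.2 and 13.4 FPKM in the controls and 12.5 and 16.6 in the knockdown. The minor IRF3-228 measured 0.707 and 0.616 FPKM in the controls and 1.45 and 0.902 in the knockdown. The annotated gene span of BCL2L12, on the other strand, overlaps that of IRF3 by 701 bases, and the library kit named by the study does not mark strand, so reads from there cannot be told apart. BCL2L12 measured 13.4 and 21.7 FPKM in the controls and 18.4 and 21.0 in the knockdown.

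At the level of transcripts, 21 of the 29 member transcripts were tested and 0 were called, as were 0 of all 24996 tested (0%). The unadjusted limma p was under 0.05 for 0 member transcripts and for 6.28% of all. Among the 21, the groups stood apart in 4 with the knockdown lower (background 16.8%), namely DDX58-202, ADAR-208, TRIM25-209 and ZC3HAV1-202. They stood apart the other way in 1 tested transcript, MAVS-202 (background 16.7%). The largest log2 fold changes belonged to the traded ADAR-201 (-1.91, SE 1.42) and ADAR-202 (1.68, SE 1.34), each with a limma adjusted p of 0.973.

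**Figure D3:**
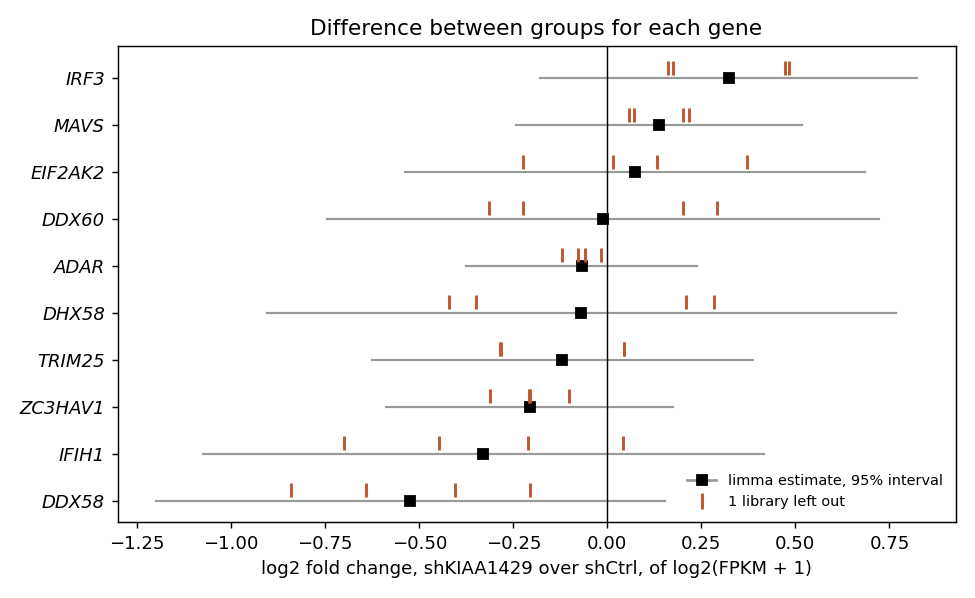
Log2 fold change of each gene (shKIAA1429 over shCtrl, on the log2(FPKM + 1) scale) as estimated by limma from all 4 libraries (squares, with 95% intervals) and with 1 library left out at a time (orange ticks). Every interval includes 0, and the ticks of TRIM25, EIF2AK2, IFIH1, DHX58 and DDX60 fall on both sides of 0.

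The wider pathway was described from 6 lists of 128 genes, of which 111 were listed and 109 tested. None was called, and at an unadjusted limma p under 0.05 there were 4 genes lower in the knockdown and 0 higher, or 3.67% of those tested beside 5.63% of all genes. The median log2 fold change was -0.04, with 62 genes below 0 and 47 above. Both knockdown libraries lay below both controls in 21 genes (19.3%, beside 16.7% of all genes) and above them in 15 (13.8%, beside 16.9%), which is near the background.

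Of the adaptors, kinases and transcription factors that act below MAVS, 22 of 23 were tested, with 14 log2 fold changes below 0, 8 above and a median of -0.07. TRAF3, a ubiquitin ligase that links MAVS to the kinase TBK1, measured 6.32 and 7.57 FPKM in the controls and 2.48 and 4.14 in the knockdown. Both knockdown libraries were well below the controls, but the log2 fold change of -0.91 (SE 0.24) did not pass (limma adjusted p = 0.730). IRF1, a transcription factor of the interferon response, lay the other way at 22.0 and 16.9 FPKM in the controls and 33.6 and 24.0 in the knockdown, with a log2 fold change of 0.53 (SE 0.23, limma adjusted p = 0.901). Its groups did not overlap either. The 28 of 29 regulators of the receptors that were listed split evenly, 14 below 0 and 14 above, with a median of -0.00074.

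The interferon genes themselves were not among the listed genes. Of 17 interferons, chemokines and cytokines, only CCL5, CCL2, CXCL8 and IL6 were listed, with 2 log2 fold changes below 0 and 2 above. CCL2 (log2 fold change 0.34, SE 0.23, limma adjusted p = 0.960) and CXCL8 (0.59, SE 0.41, limma adjusted p = 0.960) were above 0 and overlapped between the groups. CCL5, a chemokine induced by IRF3 and NF-kB, measured 22.8 and 10.9 FPKM in the controls and 6.35 and 3.47 in the knockdown. The groups did not overlap and the log2 fold change was -1.55 (SE 0.42), the most negative among the pathway genes, yet it did not pass (limma adjusted p = 0.730). IL6 measured 20.8 and 8.44 FPKM in the controls and 10.7 and 4.33 in the knockdown, overlapping between the groups and higher in both replicates 1 (log2 fold change -0.86, SE 0.55, limma adjusted p = 0.954).

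The medians of the remaining lists lay near 0, though single genes did not. Other double-stranded RNA binding and editing genes numbered 18 tested of 21, with 13 log2 fold changes below 0, 5 above and a median of -0.09. The PKR and eIF2 list had 18 tested of 18, 8 below 0, 10 above and a median of 0.01. Within it G3BP1, a stress granule protein, measured 9.83 and 11.2 FPKM in the controls and 27.1 and 12.6 in the knockdown (log2 fold change 0.77, SE 0.37, limma adjusted p = 0.918). Both knockdown libraries were above both controls, but 1 library held most of the difference. ZAP cofactors and exosome subunits numbered 19 tested of 20, 11 below 0, 8 above and a median of -0.02. EXOSC5, an exosome subunit, again had 1 high library, at 16.1 and 15.3 FPKM in the controls and 26.5 and 16.2 in the knockdown (log2 fold change 0.38, SE 0.25, limma adjusted p = 0.957). Its groups did not overlap, by a narrow margin.

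**Figure D4:**
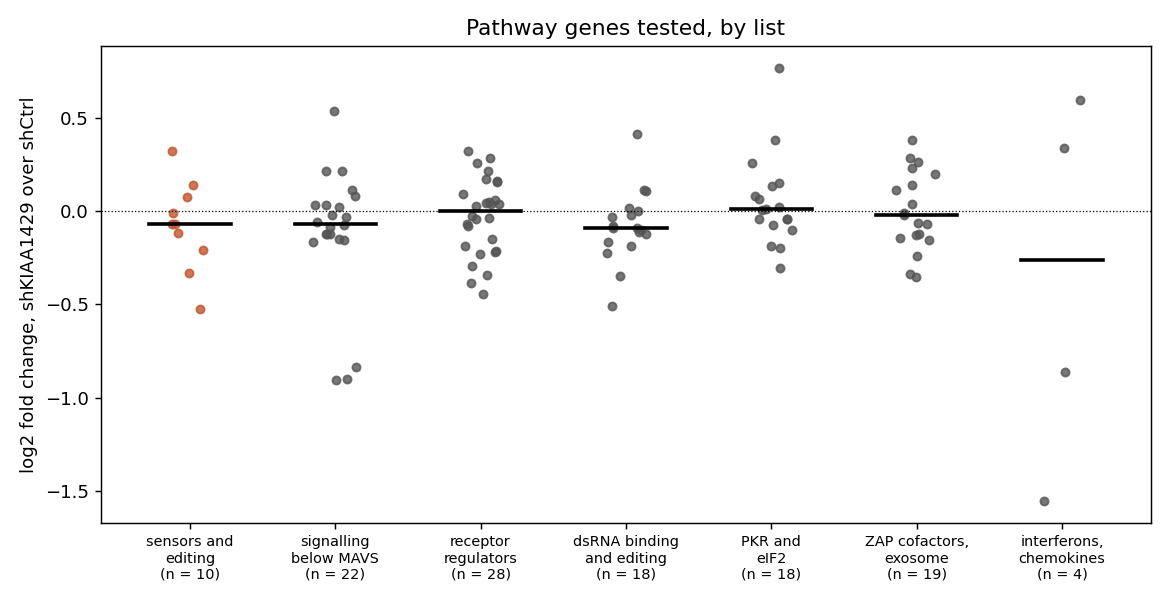
Log2 fold change (shKIAA1429 over shCtrl) of each tested gene of the 10 sensor and editing genes (orange) and of the 6 pathway lists (grey), with horizontal bars at the list medians. Medians lie between -0.09 and 0.01 except for the 4 interferon and chemokine genes, at -0.26, and no gene passed the test.

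The libraries were alike in their totals, with FPKM sums from 370253 to 390224. Read depth is unknown, so no counting error could be given. VIRMA, the targeted gene, measured 9.37 and 14.1 FPKM in the controls and 6.90 and 8.52 in the knockdown (log2 fold change -0.53, SE 0.24, limma adjusted p = 0.917), lower in both knockdown libraries without passing the test. Without control replicate 2 the log2 fold change of VIRMA was -0.26, and without control replicate 1 it was -0.80. Of 14 hepatocyte and liver epithelial markers only KRT8, KRT18 and SERPINA1 were listed, and ALB and AFP were not. Their sum was 2093 to 2151 FPKM in the controls and 2146 to 2211 in the knockdown. Of 11 markers of leukocytes, endothelium and fibroblasts 6 were listed, summing to 159 to 176 FPKM in the controls and 163 to 175 in the knockdown, and PTPRC, CD3E, PECAM1 and VWF were among those not listed.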

How the data were processed

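RNA of 4 HCCLM3 libraries was sequenced, 2 shCtrl and 2 shKIAA1429. The authors deposited 1 file per library of FPKM per transcript, positioned on hg19 (GRCh37). The submitters' processing notes name Bowtie2 2.1.0, and the tool that made the FPKM is not given in the sources used here. Each listed transcript reached about 0.5 FPKM in at least 1 library, so an unlisted gene is not known to be absent.

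FPKM were summed per gene. Genes reaching 1 FPKM in 2 or more libraries were compared as log2(FPKM + 1) with limma 3.58.1 in R 4.3.3 (lmFit, eBayes with trend, two-sided), with Benjamini-Hochberg adjustment over all genes tested, and transcripts likewise. Isoform shares were compared by an exact permutation test in scipy 1.17.1. The fit was tested on simulated data. Exon and coding lengths are from GENCODE 44 lifted to GRCh37, which held 28 of the 29 member transcripts, 15 of them with the same start and end. Reads shared between transcripts, paralogs and opposite strands remain uncertain. Pathway genes were named by rule, the 3 largest rises and 3 largest falls with a mean of at least 5 FPKM. The members and lists were chosen with earlier results of these data known. The alternatives were another scaling, filters, a pseudocount of 0.1, a replicate block, single thresholds and leaving out each library.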

Additional observations from a re-analysis of the deposited data

How the results depend on the processing

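No member was called under any alternative. Of 89 member values under the alternatives, 81 kept their direction. All 8 reversals came from leaving out 1 library, which gave log2 fold changes from -0.29 to 0.0456 for TRIM25, -0.22 to 0.37 for EIF2AK2, -0.70 to 0.0416 for IFIH1, -0.42 to 0.28 for DHX58 and -0.31 to 0.29 for DDX60. The reversals needed control replicate 1 or knockdown replicate 2 left out: TRIM25 0.0456 and 0.0431, DHX58 0.28 and 0.21 and DDX60 0.29 and 0.20 respectively, IFIH1 0.0416 without the former and EIF2AK2 -0.22 without the latter. DDX58 ran from -0.84 to -0.21, VIRMA from -0.80 to -0.26 and the median of the members from -0.25 to 0.0885. The difference between groups in the ADAR-202 share ran from -0.375 to 59.2 points (at -0.375 without knockdown replicate 1) and that in the ZC3HAV1-203 share from -16.4 to 15.2 points, at 15.2 without control replicate 1 and 11.5 without knockdown replicate 1. The calls over all genes ran from 0 to 1, with 1 gene called without control replicate 1, and 125 genes passed the fold threshold alone. The cause was not tested. When 1 library is left out, the lone library of its group is assumed to vary like the other group.

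With the replicate block 0 genes and 0 transcripts were called. The unadjusted limma p of IRF3 was 0.0358 and that of DDX58 0.0389 under the block, with adjusted p of 0.442 and 0.448. The share of all genes with an unadjusted p under 0.05 in that fit was not counted. These unadjusted values therefore have no background beside them and are not read as a result. Deviations of same-numbered libraries correlated at 0.32 across genes for these 2 pairs, and the labels do not say that the numbers pair the libraries.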

Other observations

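A few pathway genes outside the naming rule were picked after their values were seen. ADARB1, the other catalytically active adenosine deaminase of the ADAR family, measured 13.9 and 12.1 FPKM in the controls and 8.63 and 9.05 in the knockdown, a log2 fold change of -0.51 (SE 0.15, limma adjusted p = 0.774), while ADAR moved by -0.07. IKBKG, the regulatory subunit of the IKK complex, measured 8.05 and 8.36 FPKM in the controls and 5.19 and 3.32 in the knockdown (log2 fold change -0.83, SE 0.22, limma adjusted p = 0.730). IRF7, an interferon-induced transcription factor related to IRF3, measured 9.14 and 4.06 FPKM in the controls and 3.78 and 2.08 in the knockdown (log2 fold change -0.90, SE 0.41, limma adjusted p = 0.917). PRKRA, an activator of PKR, measured 2.77 and 4.93 FPKM in the controls and 5.17 and 5.41 in the knockdown (log2 fold change 0.41, SE 0.25, limma adjusted p = 0.954). In all 4 genes the groups did not overlap, which their choice by value favours, and none passed the test. Of all genes tested, 16.7% had both knockdown libraries below both controls and 16.9% had both above.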
